A study of Mus musculus with 2 samples.

Results

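The cyclins D1, D2, D3, E1, E2, A2, B1 and B2 and the kinases Cdk1 and Cdk2 were followed in regenerating mouse liver with and without the phosphatase Wip1. They were taken by name from the array files, where Cdk1 carries its older name Cdc2a, and make up 10 of the 19377 genes named on the array. They are read by 12 probes. Ccne2 and Cdk2 have 2 probes each, and the brighter one was used. The dimmer Ccne2 probe was below background in all 4 channels, and the dimmer Cdk2 probe was above it only in WT at 36 h, by 2.04 background SDs.

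The Wip1 KO samples were liver tissue of Wip1 knockout mice, 3 months old, sampled 36 h or 24 h after partial hepatectomy, the removal of part of the liver. The WT samples were liver tissue of wild-type mice of the same age, at the same times after the same operation. Each time has 1 two-colour array with Wip1 KO RNA in Cy5 and WT RNA in Cy3, and no array has the dyes exchanged. The labels do not give the promoter or exons of the knockout, the strain, the sex or the animals behind each RNA, and no unoperated liver was analysed here.

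With 1 array per time there are no replicates, so values were compared without a test, and precision is limited by having 2 arrays. Levels are normalised log2 intensities, and a ratio is a difference of 2 levels of the same probe. A channel was counted as above background when its signal stood over 2 SDs of the local background above that background, and a gene as measured when both channels of a comparison did. Where 1 channel was not above background, "at least" marks a fold against the dim probe's own level, or the lowest level above background if higher. Noise in the dim reading is not allowed for, so the true fold can be smaller. Within an array, the 48 repeats of control spots had an SD of 0.154 at 36 h and 0.115 at 24 h. The wider error that the arrays give is the spread between probes of the same gene, with an SD of 0.26 log2 units at either time for Wip1 KO over WT. For 36 h over 24 h it was 0.38 in Wip1 KO and 0.33 in WT. This spread covers probes and spots, not animals, labelling or dyes. In whole liver RNA, fewer cells of a type and less RNA per cell cannot be told apart.

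Across the array, 31.1% to 41.4% of 31920 gene probes were above background in a channel. Ppm1d, the gene of Wip1, was below background in all 4 channels on its only probe, so which channel holds the KO RNA rests on the labels. All 7 hepatocyte markers on the array were above background in every channel.

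Cyclins are regulatory subunits that switch on cyclin-dependent kinases, and each is made and destroyed at its own stage of the cell cycle. D cyclins act in G1 with Cdk4 and Cdk6, E cyclins with Cdk2 at the entry into S phase, cyclin A2 with Cdk2 and Cdk1 through S and G2, and B cyclins with Cdk1 in mitosis. After partial hepatectomy resting hepatocytes re-enter the cycle, cyclin D1 comes up in G1, and the mitotic cyclins follow later. Wip1 removes phosphate from p53 and from kinases of the DNA damage response, which hold cells at checkpoints.

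Promoter windows show what letters stand around the starts of Ccnb1, Ccnb2 and Cdk1, whose mRNA was at least 2-fold higher over time in WT and not in Wip1 KO. Cdk2, which did not differ 2-fold in any comparison, is printed beside them. RefSeq windows of 300 bases (GRCm38.p6, 250 before and 50 after the gene start) were given for 6 of the 10 genes. Capitals mark CCAAT as well as TTTGAA or TTTAAA and E2F-type letters, searched on both strands. The E2F-type letters were TTCCCGC with the forms TTCGCGC, along with TTGCCGC, along with TTGGCGC. The letters CCAAT are the core of NF-Y sites, and TTTGAA and TTTAAA are letters of the CHR element known from mitotic genes. The windows are Ccnb1 (chr13:100786437-100786736, minus strand), Ccnb2 (chr9:70421505-70421804, minus strand), Cdk1 (chr10:69352863-69353162, minus strand) and Cdk2 (chr10:128705002-128705301, minus strand).
Ccnb1: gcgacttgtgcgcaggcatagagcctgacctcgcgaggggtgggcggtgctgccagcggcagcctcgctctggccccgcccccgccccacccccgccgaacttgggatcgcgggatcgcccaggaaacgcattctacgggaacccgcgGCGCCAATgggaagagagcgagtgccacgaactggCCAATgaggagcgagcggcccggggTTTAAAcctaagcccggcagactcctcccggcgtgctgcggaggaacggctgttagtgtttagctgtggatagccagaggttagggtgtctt
Ccnb2: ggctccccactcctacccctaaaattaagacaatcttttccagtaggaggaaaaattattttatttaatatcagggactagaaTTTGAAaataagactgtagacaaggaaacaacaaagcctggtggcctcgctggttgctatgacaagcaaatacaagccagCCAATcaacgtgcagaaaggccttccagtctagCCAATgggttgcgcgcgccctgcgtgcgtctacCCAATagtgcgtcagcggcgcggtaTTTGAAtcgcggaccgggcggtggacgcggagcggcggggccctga
Cdk1: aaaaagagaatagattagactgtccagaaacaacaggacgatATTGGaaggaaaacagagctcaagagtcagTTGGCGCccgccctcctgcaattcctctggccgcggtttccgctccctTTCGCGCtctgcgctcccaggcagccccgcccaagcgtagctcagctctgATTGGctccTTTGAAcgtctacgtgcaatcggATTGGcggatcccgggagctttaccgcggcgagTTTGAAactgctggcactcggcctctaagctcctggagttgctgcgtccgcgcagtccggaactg
Cdk2: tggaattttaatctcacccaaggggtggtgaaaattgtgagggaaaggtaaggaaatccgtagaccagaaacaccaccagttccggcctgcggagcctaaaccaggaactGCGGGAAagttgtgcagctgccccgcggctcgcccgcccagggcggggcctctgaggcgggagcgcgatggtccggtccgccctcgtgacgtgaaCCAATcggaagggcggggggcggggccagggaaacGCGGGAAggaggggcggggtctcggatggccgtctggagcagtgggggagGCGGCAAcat

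The Ccnb2 window held 3 CCAAT and 2 TTTGAA, and the Cdk1 window 3 CCAAT, read as ATTGG, 2 TTTGAA and 2 E2F-type matches. The Ccnb1 window held 2 CCAAT and 1 TTTAAA, and its 1 E2F-type match overlaps the first CCAAT as GCGCCAAT. The Cdk2 window held 1 CCAAT, 3 E2F-type matches and neither TTTGAA nor TTTAAA. Of 32851 windows of 27025 genes, 37.4% held CCAAT, 27.6% TTTGAA or TTTAAA, and 9.57% an E2F-type match. At least 2 CCAAT together with TTTGAA or TTTAAA, as in Ccnb1, Ccnb2 and Cdk1, stood in 3.13% of windows. This combination is the least that these same windows share, so its share is not a test. The Ccne1 window held 1 TTTAAA only, and of the 2 windows given for Ccnd3 one held 1 CCAAT and the other no match. These matches describe letters and not bound sites.

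Cyclin D1 was the D cyclin that differed at least 2-fold between genotypes. Ccnd1, the G1 cyclin induced after hepatectomy, had a level of 9.36 in Wip1 KO at 36 h and 10.24 in Wip1 KO at 24 h, against 11.24 in WT at 36 h and 10.38 in WT at 24 h. At 24 h the genotypes differed by less than the spread of probes, and the order at 36 h was Wip1 KO lowest and WT highest of all 4 channels. Wip1 KO over WT was -1.89 at 36 h, 3.70-fold lower, and -0.14 at 24 h. From 24 h to 36 h Ccnd1 was 1.85-fold lower in Wip1 KO and 1.82-fold higher in WT.

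Cyclins D2 and D3 pair with the same kinases. Ccnd2 had 8.02 in Wip1 KO and 8.27 in WT at 36 h, and 8.51 in Wip1 KO and 8.43 in WT at 24 h. Neither genotype difference (-0.25 at 36 h and 0.08 at 24 h) exceeded the spread of probes, and neither did the WT time difference of -0.16, while Wip1 KO was 1.41-fold lower at 36 h. Ccnd3 had 8.14 in Wip1 KO and 8.70 in WT at 24 h, a ratio of -0.56 that exceeds the spread of probes, and 8.32 in WT at 36 h. Its Wip1 KO signal at 24 h was only 2.67 background SDs above background, so that ratio too was not measured at a minimum of 3. At 36 h Ccnd3 in Wip1 KO was not above background, where it was at least 1.21-fold lower than in WT.

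The E cyclins, partners of Cdk2 in S-phase entry, were lower at 36 h than at 24 h in both genotypes, and their measured genotype ratios lay within the spread of probes. Ccne2 had 7.65 in Wip1 KO and 7.64 in WT at 36 h, and 8.74 in Wip1 KO and 8.69 in WT at 24 h. The genotypes were nearly equal at each time, with log2 ratios of 0.0028 at 36 h and 0.05 at 24 h, and 36 h was 2.13-fold lower than 24 h in Wip1 KO and 2.06-fold lower in WT. Ccne2 in Wip1 KO at 36 h was only 2.10 background SDs above background, so it was not measured there at a minimum of 3, and the WT difference was -0.92 from mean foreground, short of 2-fold. Ccne1 had 8.51 in Wip1 KO and 8.25 in WT at 24 h and was below background in both genotypes at 36 h. It was at least 2.86-fold lower at 36 h than at 24 h in Wip1 KO and at least 1.84-fold lower in WT.

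Ccna2, the cyclin of S phase and G2, changed order between the times. It had 9.11 in Wip1 KO and 8.30 in WT at 24 h, 1.75-fold higher in Wip1 KO, a difference of 0.81 that exceeds the spread of probes. At 36 h it was not above background in Wip1 KO and had 8.999 in WT, which makes it at least 2.76-fold lower in Wip1 KO. From 24 h to 36 h Ccna2 was at least 2.97-fold lower in Wip1 KO and 1.62-fold higher in WT.

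The B cyclins, activators of Cdk1 in mitosis, were the genes of the 10 furthest below WT in Wip1 KO at 36 h and furthest up over time in WT. Ccnb2 had 9.002 in Wip1 KO at 36 h and 10.24 in Wip1 KO at 24 h, against 11.40 in WT at 36 h and 8.72 in WT at 24 h. The order of the genotypes turned between the times, with Wip1 KO 5.26-fold lower at 36 h and 2.86-fold higher at 24 h. Ccnb2 was 2.35-fold lower at 36 h than at 24 h in Wip1 KO and 6.39-fold higher in WT. Before correction and scaling the spot read 406 in Wip1 KO at 36 h and 1080 in Wip1 KO at 24 h, against 2796 in WT at 36 h and 420 in WT at 24 h, with local backgrounds of at most 40. Its spot at 36 h carries a quality flag of -100, as do 66.0% of gene probes at that time, and the others carry 100. Among measured genes the flag of -100 is rarer: 6724 of 7435 carry 100 at 36 h and 7443 of 7994 at 24 h. The file headers do not give the meaning of the flag.

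Ccnb1 had 7.57 in Wip1 KO and 7.20 in WT at 24 h, both dim at 4.63 and 3.92 background SDs above background. At 36 h it had 9.65 in WT and was not above background in Wip1 KO, at least 4.79-fold lower. The raw readings were 76 in Wip1 KO, with a background SD of 50.7, and 784 in WT. From 24 h to 36 h it was 5.48-fold higher in WT, a log2 difference of 2.46, and 3.26 under plain background subtraction or 3.18 without background correction. At 24 h its ratio was 0.37, and 0.66 to 0.68 under plain background subtraction, without background correction and in the deposited ratios, and that spot too is flagged -100.

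Of the kinases, Cdk1 differed at least 2-fold between genotypes at 36 h and Cdk2 at neither time. Cdk1, the mitotic kinase, had 9.88 in Wip1 KO at 36 h and 11.42 in Wip1 KO at 24 h, against 11.85 in WT at 36 h and 10.81 in WT at 24 h. Its raw readings were 801 in Wip1 KO at 36 h and 2524 in Wip1 KO at 24 h, against 3789 in WT at 36 h and 1862 in WT at 24 h, the brightest of them 103 background SDs above background. Wip1 KO was 3.90-fold lower than WT at 36 h and 1.52-fold higher at 24 h, on a spot that carries the flag -100 at 24 h. From 24 h to 36 h Cdk1 was 2.90-fold lower in Wip1 KO and 2.04-fold higher in WT, and the WT value lay between 0.93 and 0.99 log2 units, short of 2-fold, under 5 of the other settings.

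Cdk2, the S-phase kinase, had 8.22 in Wip1 KO and 8.34 in WT at 36 h, and 8.65 in Wip1 KO and 8.60 in WT at 24 h. The ratios of -0.12 at 36 h and 0.05 at 24 h lay within the spread of probes. At 36 h it was 1.34-fold lower than at 24 h in Wip1 KO and 1.20-fold lower in WT.

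**Figure D1:**
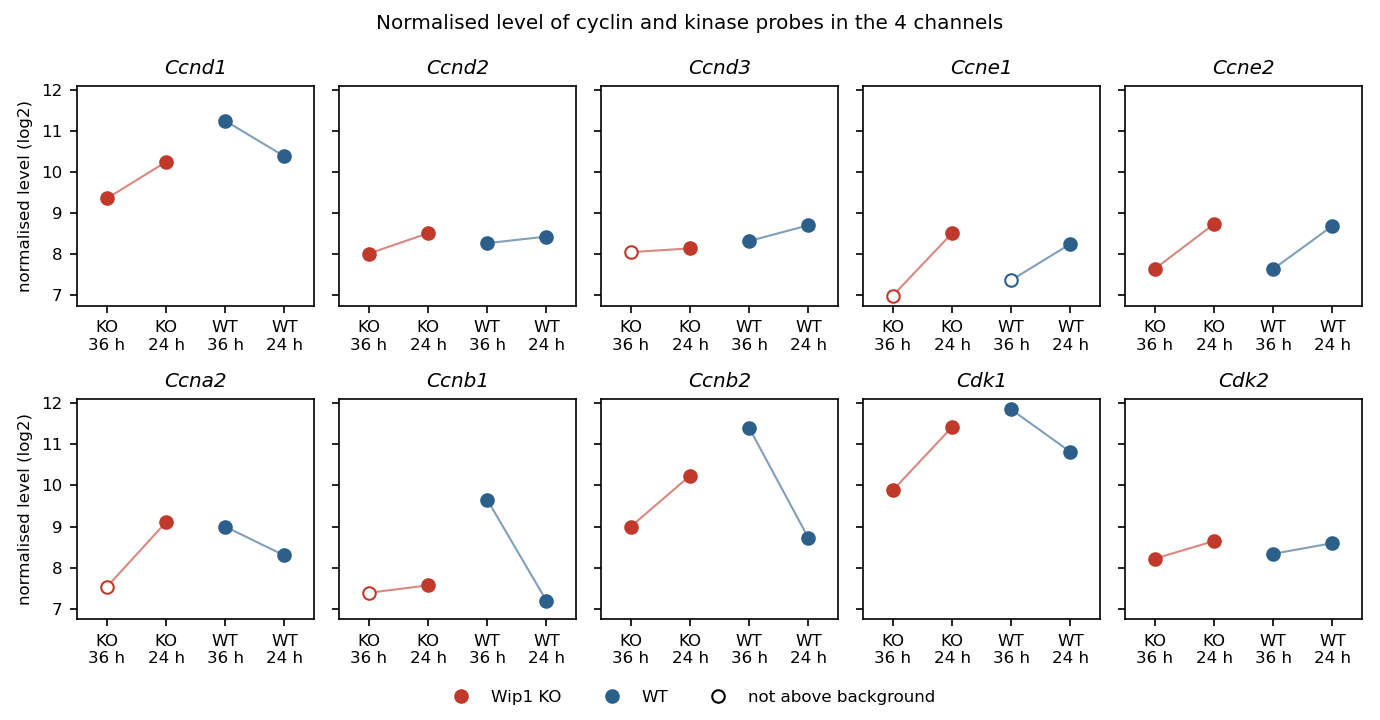
Normalised log2 level of each of the 10 genes in the 4 channels, 1 array per time, with 36 h placed left of 24 h. Filled points are above background and open points are not. Ccnb2 and Cdk1 are higher in Wip1 KO than in WT at 24 h and lower at 36 h, and Ccne2 and Cdk2 nearly coincide between genotypes.

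The first comparison, Wip1 KO over WT at 24 h, asks whether the knockout differs early in regeneration. All 10 genes were measured and 8 were above 0, against 51.9% of all measured genes. Under median centring 5 were above 0. That setting moves the median of all genes to -0.11 against 0.01 and puts Ccnd2, Ccne2 and Cdk2 below 0. Only Ccnb2 was at least 2-fold higher, against 1.51% of 7994 measured genes, and none was at least 2-fold lower, against 0.763% (2.28% for both directions). Over all genes 121 were higher and 61 lower, or 83 and 89 under median centring. The median of the 10 ratios was 0.17, and 0.01 over all genes. The higher values belonged to the later cell cycle genes Ccna2, Ccnb2, Cdk1 and Ccnb1, and Ccnd3 was lowest.

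At 36 h, 6 of the 10 genes were measured and 5 were below 0, while 54.0% of all measured genes were above 0. Ccnd1, Ccnb2 and Cdk1 were at least 2-fold lower in Wip1 KO, against 2.07% of 7435 measured genes, and none was at least 2-fold higher, against 2.65% (4.72% for both directions). Their median was -1.07 and that of all genes 0.03. Ccnd3, Ccna2 and Ccnb1 were above background in WT only, and Ccne1 in neither genotype. A count over measured genes leaves out those that dropped below background in Wip1 KO, and counting them at their bounds puts 5 of 9 at least 2-fold lower, against 2.63% of 8657 genes counted the same way. A gene above background in WT only can only be bounded as lower. Among spots flagged 100, 5 genes were measured and Ccnd1 and Cdk1 were at least 2-fold lower.

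**Figure D2:**
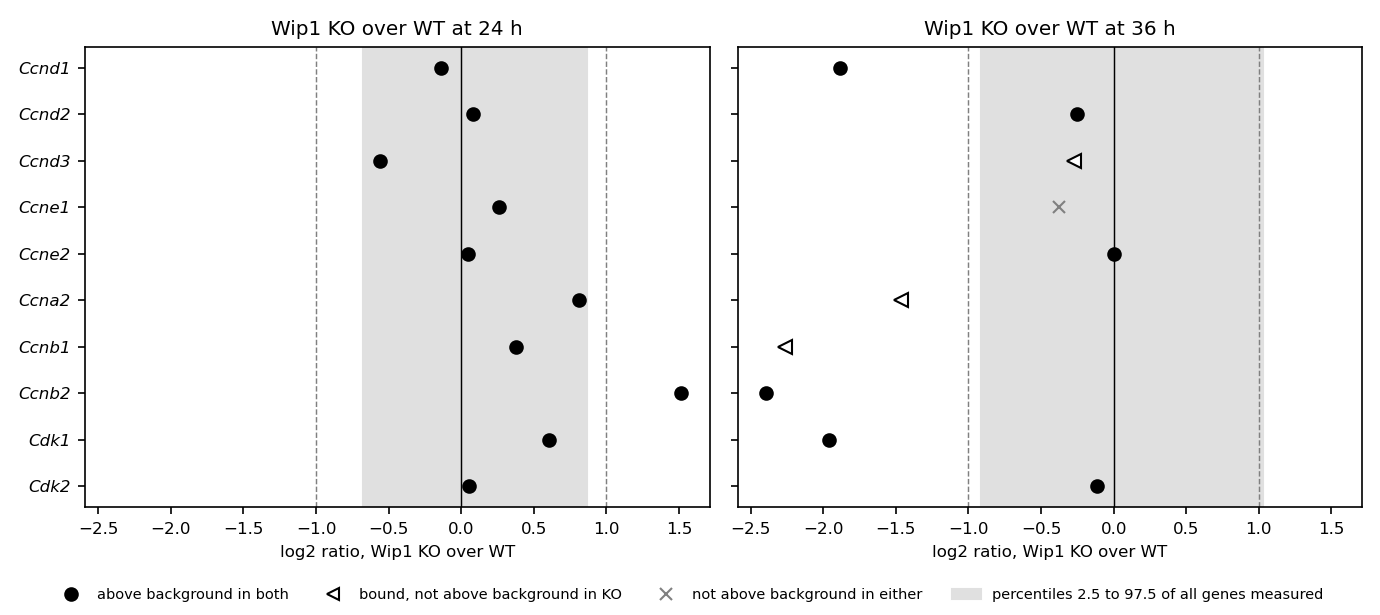
Log2 ratio of Wip1 KO over WT for each of the 10 genes at 24 h and 36 h. Filled points are above background in both channels, open triangles are bounds, the cross is above background in neither, the grey band spans the percentiles of all measured genes named in the legend (-0.91 to 1.03 at 36 h and -0.68 to 0.87 at 24 h) and dashed lines mark 2-fold. Ccnb2 is at 1.52 at 24 h and -2.40 at 36 h, and Ccnd1 at -0.14 at 24 h and -1.89 at 36 h.

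Within Wip1 KO, all 6 measured genes were lower at 36 h than at 24 h, while 55.1% of all measured genes were higher. Ccne2, Ccnb2 and Cdk1 were at least 2-fold lower, against 3.61% of 7091 genes, and none was at least 2-fold higher, against 2.52% (6.13% for both directions). Their median was -0.99, and 0.05 over all genes. Ccnd3, Ccne1, Ccna2 and Ccnb1 were above background at 24 h only.

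Within WT, 9 genes were measured, 5 above 0 and 4 below, while 53.9% of all measured genes were above 0. Ccnb1, Ccnb2 and Cdk1 were at least 2-fold higher at 36 h than at 24 h, against 1.38% of 8560 genes, and Ccne2 at least 2-fold lower, against 1.55% (2.93% for both directions). Their median was 0.70, and 0.03 over all genes. Ccnd1 and Ccna2 were also higher, and Ccnd2, Ccnd3, Ccne2 and Cdk2 lower. Over all genes 179 were higher and 256 lower at 36 h in Wip1 KO, or 259 and 208 under median centring, and 118 and 133 in WT, or 93 and 166.

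Ccnb2 and Cdk1 were at least 2-fold lower over time in Wip1 KO and at least 2-fold higher in WT, as 16 of 7003 genes above background in all 4 channels were. Ccnd1 moved apart in the same way by less than 2-fold in each genotype, among 1418 genes below 0 in Wip1 KO and above 0 in WT. The ratio of Wip1 KO over WT at 36 h minus that at 24 h was -3.91 for Ccnb2, -2.57 for Cdk1 and -1.75 for Ccnd1, and at least 2-fold lower for 4.18% of genes. It was -0.33 for Ccnd2, -0.17 for Cdk2 and -0.05 for Ccne2. Without spots flagged other than 100, which include Ccnb2 at 36 h and Cdk1 at 24 h, neither gene has a value over time. The 4 comparisons share their channels, so they are not independent of each other.

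**Figure D3:**
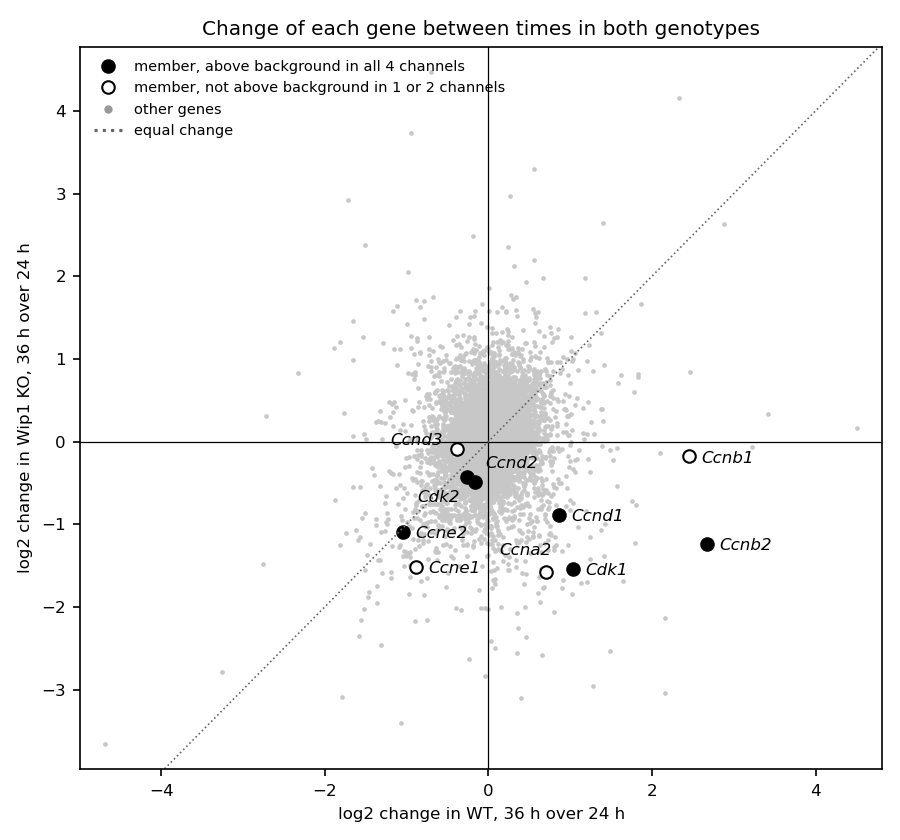
Log2 change from 24 h to 36 h in WT (horizontal) and in Wip1 KO (vertical) for each gene, with the 10 genes labelled, open where not above background in every channel, and other genes in grey. Ccnb2, Cdk1 and Ccnd1 lie right of 0 and below 0, while Ccne2, Ccnd2 and Cdk2 lie near the dotted line of equal change.

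Over the 4 centred levels, the gene nearest to Cdk1 among 7003 was Znf41-ps (distance 0.145 log2 units), followed by Cadps2, the mitotic kinase gene Nek2, the kinetochore gene Nuf2 and Birc5, the survivin gene (0.327). The nearest to Ccnb2 were Kif20a, a mitotic kinesin gene (0.706), Hilpda, Cenpa, Id1 and Srgn (0.901). Ccnd1 was nearest to Acot4 (0.0938), Ehhadh, Vnn1, the replication licensing gene Cdt1 and Trpv2. Among the 6 genes above background in all 4 channels the closest pair was Ccnd2 and Cdk2 (0.0991), and the distance was 0.579 for Ccnd1 and Cdk1 and 1.21 for Ccnb2 and Cdk1.

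6 further lists hold the genes that act around the cyclins. Over all measured genes, 54.0% were above 0 at 36 h and 51.9% at 24 h. Among other cyclins and kinases, 8 of 10 were on the array, 5 of these were measured at each time and none was 2-fold apart. Cdk4, the partner of the D cyclins, had a Wip1 KO over WT ratio of -0.27 at 36 h and -0.26 at 24 h. The median of the list was 0.06 at 36 h and -0.11 at 24 h, near that of all genes.

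CDK inhibitors were above 0 in 4 of 4 measured at 24 h, against 51.9% of all measured genes, with a median of 0.25, and Cdkn1a, the p53 target p21, had 0.67. Cdkn1b, the inhibitor p27, was above background in WT only at 24 h, with Wip1 KO at least 1.19-fold lower. At 36 h 3 were measured with a median of 0.04, and Cdkn1a had 0.04. Of the list of kinases, phosphatases and small subunits acting on CDKs, 2 were measured at 36 h and 3 at 24 h, all below 0, and Cks1b, a subunit that binds Cdk1 and Cdk2, had -1.02 at 36 h and -0.09 at 24 h. Of pocket proteins and E2F factors, which restrain and drive the transcription of cyclins E and A, 6 were measured at 36 h and 8 at 24 h, with medians of 0.00 at 36 h and 0.04 at 24 h. In WT, 8 of 10 measured pocket and E2F genes were lower at 36 h than at 24 h (median -0.41), and E2f1 was 3.70-fold lower. In Wip1 KO 4 of 5 measured were lower at 36 h (median -0.64), and E2f1 was at least 5.77-fold lower. Over all measured genes, 53.9% were higher at 36 h than at 24 h in WT and 55.1% in Wip1 KO.

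Of the machinery that destroys cyclins, 15 genes were measured at 36 h and 9 were below 0 (median -0.15), while 54.0% of all measured genes were above 0. In Wip1 KO 2 of the 15 were at least 2-fold lower, against 2.07% of all measured genes: Cdc20, the activator of the anaphase-promoting complex (6.18-fold), and Ube2c, its ubiquitin-conjugating enzyme (2.56-fold). At 24 h 9 of 15 were above 0 (median 0.02), Fbxo5, an inhibitor of that complex, had 0.90, and Cdc20, which was not above background in WT, was at least 2.36-fold higher in Wip1 KO. Over time Cdc20 was 2.95-fold lower at 36 h than at 24 h in Wip1 KO and at least 4.94-fold higher in WT. Of the transcription factors of cyclin genes, 6 were measured at 24 h, 3 above 0 and 3 below, and Myc had 1.05. At 36 h 4 were measured, with a median of 0.06, and Myc was above background in WT only.

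**Figure D4:**
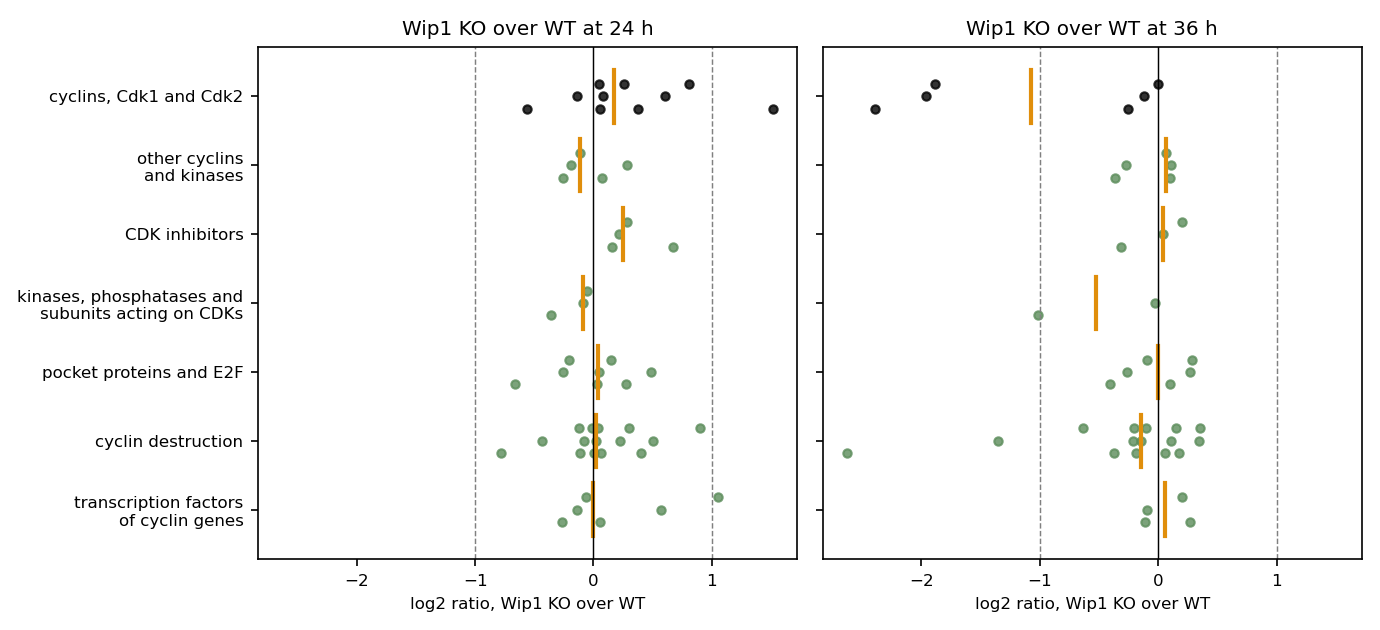
Log2 ratio of Wip1 KO over WT for the measured genes of the 6 pathway lists and the 10 cyclins and kinases, at 24 h and 36 h, 1 point per gene, with orange bars at list medians and dashed lines at 2-fold. The 4 measured CDK inhibitors lie above 0 at 24 h, and at 36 h the lowest gene is Cdc20 at -2.63.

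Markers of cell types also differed between the genotypes, in directions that varied by cell type, and their part in these results was not tested. Over all measured genes, 54.0% were above 0 at 36 h and 51.9% at 24 h. Of stellate and matrix markers, 5 of the 6 on the array were measured, all above 0 at 24 h (median 1.56) and all below 0 at 36 h (median -0.46). Lrat of this list was not measured and pointed the other way at 24 h. Only its WT channel stood above background then, and its ratio of Wip1 KO over WT read -0.55. At 36 h neither Lrat channel did. The summed intensity of the list was 3187 in Wip1 KO and 4710 in WT at 36 h, and 11721 in Wip1 KO and 4037 in WT at 24 h. Bile duct markers had medians of -0.51 (4 measured, all below 0) at 36 h and 0.90 (6 measured, all above 0) at 24 h, with sums of 2715 in Wip1 KO and 4097 in WT at 36 h and 8881 in Wip1 KO and 3506 in WT at 24 h. Of the 7 bile duct markers, 4 were above background in Wip1 KO at 36 h and 6 at 24 h, against all 7 in WT at both times. Hepatocyte markers were 7 of 7 above 0 at 36 h (median 0.86) and 6 of 7 at 24 h (median 0.30). The medians of macrophage markers were 0.21 at 36 h and -0.49 at 24 h, of endothelial markers 0.45 and 0.07, of erythroid markers -0.23 and 0.72, and of the 3 measured neutrophil markers -0.37 and 0.58, each with 36 h first. Among the neutrophil markers at 24 h, 2 were above 0 and Prtn3 was 3.45-fold lower in Wip1 KO. Of 8 lymphocyte markers 1 was measured at 36 h and 2 at 24 h.

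Genes that differ between the sexes in mouse liver also separated the 36 h channels. Wip1 KO was at least 2-fold above WT for all 7 measured male-biased genes (median 4.05) and at least 2-fold below for all 7 measured female-biased genes (median -4.46). The summed intensity of the male-biased list was 45977 in Wip1 KO and 4089 in WT at 36 h, and 5062 in Wip1 KO and 5248 in WT at 24 h. The female-biased list had 10032 in Wip1 KO and 122630 in WT at 36 h, and 21920 in Wip1 KO and 52709 in WT at 24 h. At 24 h 5 of 7 measured female-biased genes were at least 2-fold lower in Wip1 KO (median -2.05), against 0.763% of all measured genes. At 36 h the Y-linked gene Eif2s3y was below background in WT, and Wip1 KO exceeded it at least 14.3-fold. The Y-linked genes Ddx3y and Kdm5d were above background in both genotypes then, 2.65-fold and 1.74-fold higher in Wip1 KO. Usp9y was above background in WT only and Uty in neither. The sex of the animals and the genotype cannot be told apart at 36 h, since the labels give no sex and each genotype has 1 channel. Male-biased genes also separated the Wip1 KO channels of the 2 times. All 4 measured were at least 2-fold higher at 36 h than at 24 h (median 2.17), against 2.52% of all measured genes. Eif2s3y was at least 19.1-fold higher. Of the other Y-linked genes, Ddx3y was 3.95-fold and Kdm5d 1.62-fold higher. Usp9y was above background at 24 h only, with a ratio that read -0.24, and Uty at neither time. Sex and time cannot be told apart within Wip1 KO either. Female-biased genes were mixed there, with 2 of 6 measured above 0 and 4 below (median -0.99). Of these 3 were at least 2-fold lower, against 3.61% of all measured genes. In WT all 9 measured female-biased genes were higher at 36 h than at 24 h (median 0.75), against 53.9% of all measured genes.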

How the data were processed

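RNA of Wip1 KO (Cy5) and WT (Cy3) mouse liver was measured on 2 arrays, 1 each at 36 h and 24 h after partial hepatectomy. Per the file headers, spots were scanned with LuxScan at 635 nm and 532 nm, and the deposited files hold raw foreground and background intensities. The authors also deposited a table of linear ratios, KO over WT, whose normalisation is not given in the sources used here. Its rows carry no probe names. They were matched to the gene probes in falling order of probe ID, with the first rows left out. How many rows to leave out was set by the correlation with the loess ratios, so that correlation is not an independent check of it. The correlation was 0.974 at 36 h and 0.971 at 24 h, against 0.0432 and 0.0260 after a shift of 1 row. The deposited ratios are one of the alternatives.

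Median intensities were corrected by normexp (offset 50) and normalised by loess within arrays, with control spots at weight 0, and by Aquantile between arrays, in limma 3.58.1 under R 4.3.3. The steps were tested on simulated data. Of 33696 spots 31920 were gene probes. Names were brought to current symbols with the gene table given (14166 of 19498 matched a symbol and 3898 a synonym, and 7528 probes had no name). For 3645 genes with several probes the brightest was used. Later steps ran in Python 3.11.15 with pandas 2.3.3 and numpy 2.4.6, and figures were drawn with matplotlib 3.10.9.

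A gene above background in 1 channel got a bound of its fold. It set the bright level against the higher of the dim channel's lowest level above background and the dim probe's own. For Ccnd3, Ccne1, Ccna2 and Ccnb1 this was the ratio as read, without allowance for noise in the dim reading. Likeness is the Euclidean distance over 4 levels, each centred on the gene's mean, with the 5 nearest genes given for Ccnd1, Ccnb2 and Cdk1. Genes named from the 6 pathway lists were up to 4 of the largest ratio each. Myc at 36 h and the time courses of list genes were chosen after their values were seen, as were the markers named. The genes, lists and motifs were chosen with earlier results of these data known.

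Alternatives were other background corrections, foreground, scaling, filters, probe rule and the deposited ratios. The alternatives with flags and bounds were added after seeing the data.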

Additional observations from a re-analysis of the deposited data

Results flagged for a closer look

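Of the 6 genes above background in all 4 channels, 3 changed in opposite directions over time in Wip1 KO and in WT. These 3 were below 0 in Wip1 KO and above 0 in WT, as were 1418 of all 7003 genes above background in all 4 channels. Ccna2 and Ccnb1, below background in Wip1 KO at 36 h, have no measured difference, and both were higher over time in WT. By its bound Ccna2 lay lower over time in Wip1 KO (at least 2.97-fold). The Ccnb1 bound of 1.13-fold, or -0.18 log2 units, lay within the spread of probes of 0.38. The difference between genotypes in change over time was not tested, since each group is 1 channel of 1 array. The log2 change from 24 h to 36 h in Wip1 KO minus that in WT was -3.91 for Ccnb2, -2.57 for Cdk1 and -1.75 for Ccnd1. For Ccnb2 and Cdk1 the ratio of Wip1 KO over WT at 36 h minus that at 24 h has the same values (-3.91 and -2.57) because it is built from the same 4 levels, and its sign turned between the times. For Ccnd1 the ratio was below 0 at both times.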

How the results depend on the processing

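No paired analysis was possible because the labels give no replicate numbers and each time has 1 array, so none could be left out either. No single ratio of the 10 genes among those at least 2-fold apart changed direction under any alternative run. In WT over time 2 such ratios fell short of 2-fold under some settings: Cdk1 at 0.93 (median centring), 0.98 (mean foreground), 0.98 (quantile over 4 channels), 0.99 (print-tip loess) and 0.99 (no scaling between arrays), and Ccne2 at -0.92 (mean foreground).

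The median of the measured genes at 36 h was -0.92 without the filter on dim spots (10 genes) and -0.25 with flag 100 only (5 genes), against -1.07. In Wip1 KO over time it passed -1 under plain subtraction (-1.20), no background correction (-1.11), mean foreground (-1.002), print-tip loess (-1.05), a minimum of 3 background SDs (-1.06) and no scaling between arrays (-1.09), against -0.99. In WT over time it was 0.27 without the filter and with genes at their bounds, and -0.21 with flag 100 only, against 0.70. The alternatives that test fewer or more genes change which genes the median covers.

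Counts of genes at least 2-fold apart at 24 h were 311 under plain subtraction, 286 without background correction and 305 in the deposited ratios, against 182. In Wip1 KO over time they were 653 under plain subtraction and 804 without the filter, against 435, and in WT over time 439 under plain subtraction and 421 without background correction, against 251. The cause was not tested. Signal limits Ccnb1, Ccnd3, Ccna2 and Ccne1 at 36 h in Wip1 KO, where all 4 lay below 2 background SDs.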
